A study of Gallus gallus with 6 samples.

Results

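The subject is 10 cytokine and chemokine genes measured in hen jejunal mucosa, which lines the mid small intestine. They were taken by symbol from the deposited expression table: IL1B, IL8L1, IL8L2, IL15, IL18, CCL4, CCL5, CCL19, CCL20 and CXCL12. All 10 were found among 16317 genes, and 9 of them were among the 13060 genes with enough counts to be tested. SUT breeder hens aged 28 weeks were held at 36 °C for 6 h (acute heat) or kept at 23 °C (control, no heat stress). There were 25 birds per condition, 50 in total, and RNA from 12 birds per condition was used. Each library came from RNA of 4 hens, which gave 3 heat pools and 3 control pools, so each p-value rests on the spread between pools. The stated purpose was to find genes tied to acute heat in the gut.

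Cytokines are secreted proteins through which epithelial, stromal and immune cells signal to each other, and chemokines are the subset that directs cell migration. In the intestine, epithelial cells release IL18, IL15 and CCL20, which act on lymphocytes lodged in and under the epithelium. IL1B and the IL8-like chemokines are acute inflammatory signals that draw heterophils, the avian counterpart of neutrophils. CCL19 and CXCL12 are homeostatic chemokines, in mammals made largely by stromal cells, that position lymphocytes in lymphoid tissue. Many of these genes are induced through the transcription factor NF-kB. IL1B and IL18 are made as precursors which, in mammals, inflammasome caspases cleave, so a transcript level does not give the amount of active protein.

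The summed estimated counts were 11513427 to 12947832 in heat pools and 13542604 to 13805395 in control pools. By edgeR's quasi-likelihood test, 3 of the tested genes (0.023%) had an adjusted p under 0.05. All were higher in heat pools (OSGIN1, IRS2 and CYP2U1), and none was a cytokine or chemokine of the set. At an unadjusted p of 0.05 edgeR counted 17.9% of tested genes, and DESeq2 called 4.94% at an adjusted p of 0.05. On the first principal component of log2 CPM (37.6% of the variance) the libraries were spread from 45.69 (heat pool 2) over 8 and 6.5 (heat pools 1 and 3) to between -27.12 and -16.53 (the 3 control libraries). On the second (20.4%) heat pool 3 lay at -38.84, and the other 5 libraries between 2.7 and 13.51. All 10 enterocyte markers were detected in every pool, with summed CPM (counts relative to the scaled library size) of 10400 to 14800 in heat pools and 10600 to 13300 in control pools. Of these, VIL1 was lower in every heat pool (617 to 1110 CPM) than in any control pool (1200 to 1270 CPM, edgeR adjusted p = 0.235). Over all 10 the median log2 fold change was 0.03. Smooth muscle markers were detected too, at 733 to 1560 CPM in heat pools and 740 to 1260 CPM in control pools. None of these 7 markers had a negative fitted change, against 50.3% of all tested genes. Their median log2 fold change was 0.41, and none was called in edgeR, DESeq2 or limma-trend. In such bulk tissue, fewer cells of a type and less RNA per cell cannot be told apart.

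Of the 10 genes, all but CCL5 were ordered by level, and these 9 spanned a wide range. Compared per length, as FPKM (fragments relative to gene length and library size), IL15 was the most abundant. It had 371, 296 and 573 FPKM in heat pools 1, 2 and 3, against 334, 344 and 417 FPKM in control pools 1, 2 and 3. Its mean over the 6 pools exceeded that of 98.2% of all genes in the table, and its range did not overlap that of CCL20, the next gene. CCL20 (20.3 to 57.6 FPKM) and CCL19 (8.73 to 48.2 FPKM) came next, and their ranges overlapped each other and that of IL18 (17.3 to 25.1 FPKM). CCL20 was above CCL19 in 5 of 6 pools and CCL19 was above IL18 in 5 of 6. IL18 was above CXCL12 (7.76 to 12.1 FPKM) in every pool, with no overlap. CXCL12 was above CCL4 (4.06 to 10.9 FPKM) in all 6 pools although their ranges met, and CCL4 was likewise above IL8L2 (2.16 to 6.81 FPKM). IL1B (0.98 to 3.35 FPKM) and IL8L1 (0.67 to 4.08 FPKM) were the least abundant, and IL1B was above IL8L1 in 4 of 6 pools. Among these 9 the lymphocyte-directed IL15 thus led by a wide margin, and the acute inflammatory genes IL1B, IL8L1 and IL8L2 lay lowest.

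**Figure D1:**
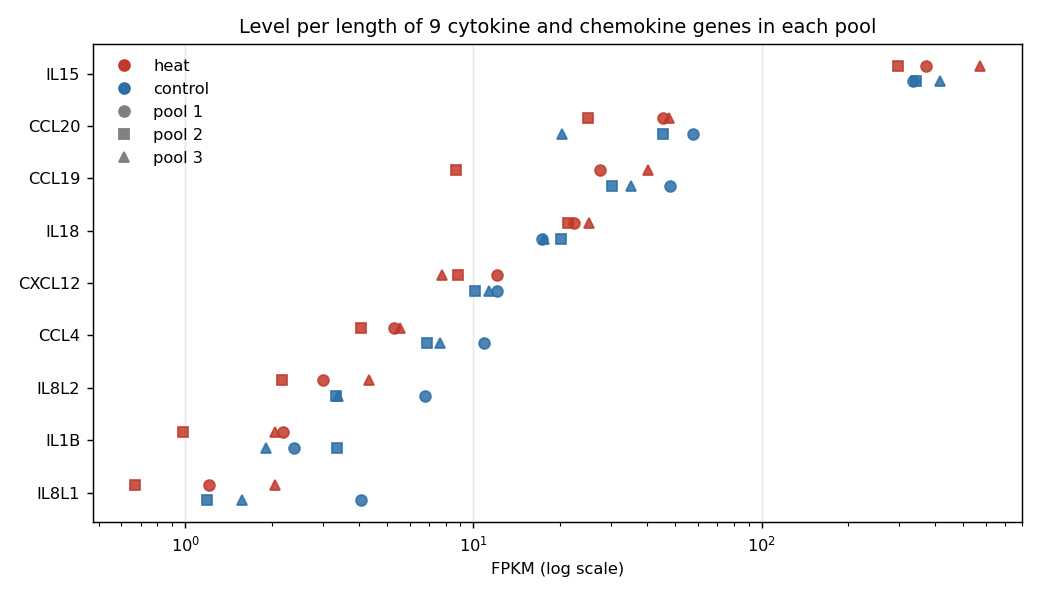
FPKM (log axis) of 9 of the 10 genes in each heat pool (red) and control pool (blue), with the genes ordered by their mean over the 6 pools. IL15 lies at 296 to 573 FPKM and stands apart from the other 8, which run down to 0.67 FPKM for IL8L1 in heat pool 2.

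CCL5 was left out of this order. CCL5, a chemokine for T cells and monocytes, had 7, 6 and 15 counts in heat pools 1, 2 and 3, against 7, 12 and 10 counts in control pools 1, 2 and 3. Its deposited FPKM averaged 41.2 ± 16.6 in heat pools and 41.7 ± 12.7 in control pools (SD, n = 3 each). Count and FPKM together imply a length of 17 bases for CCL5, where they imply 447 bases for CCL4, so its FPKM cannot be read as a level. In CPM it averaged 0.77 ± 0.41 in heat pools and 0.695 ± 0.181 in control pools, with overlapping groups. The 95% exact Poisson interval of its 15 counts in heat pool 3 ran from 0.693 to 2.04 CPM and that of its 7 counts in control pool 1 from 0.202 to 1.03 CPM. No difference was detectable for CCL5 at this depth. Poisson intervals here and in the plot of CPM by pool cover counting error only.

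No tested gene among the 9 had an adjusted p under 0.05, in edgeR, in DESeq2 (which called 2.7% of all tested genes higher and 2.24% lower) or in limma-trend on log2(FPKM + 1) (which called 0.0153%, all higher). At an unadjusted p of 0.05 edgeR counted 1 higher (IL18) and 1 lower (CCL4), against 8.87% higher and 9.02% lower among all tested genes. The same 2 genes were those with no overlap between the groups, a pattern found in 24.5% of all tested genes (11.6% with heat above control and 12.9% with heat below). The fitted change was negative for 6 of 9, against 50.3% of all tested genes. The median log2 fold change was -0.44 over the 9 genes and -0.0027 over all tested genes. The 10 genes were fixed by name, and 9 of them were what the low-count filter left.

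**Figure D2:**
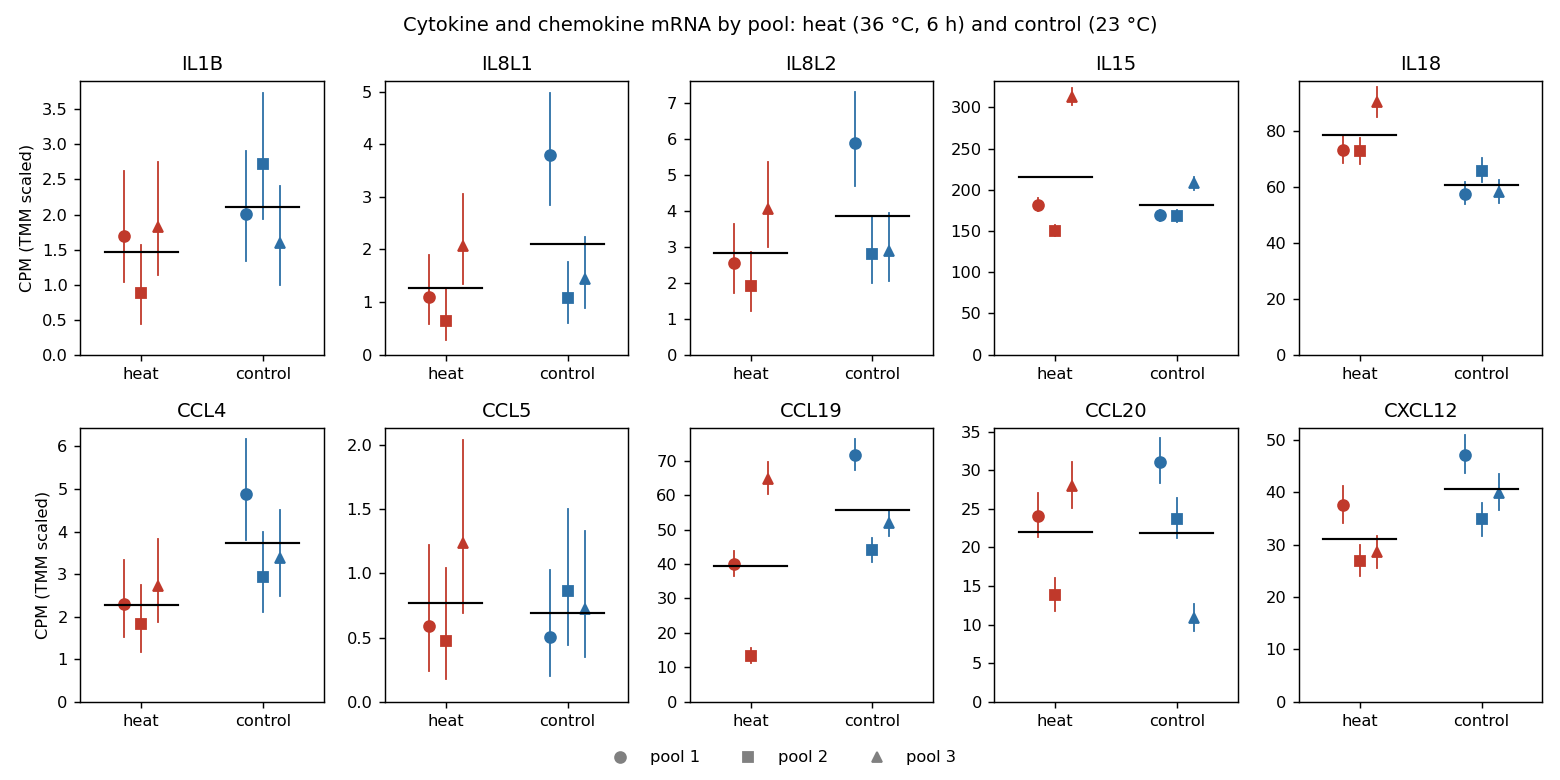
CPM of each of the 10 genes in the heat pools (red, left) and control pools (blue, right); symbols mark the pool, vertical lines the 95% exact Poisson interval of the count, and horizontal lines the group mean. Only IL18 (heat above control) and CCL4 (heat below control) show no overlap between the groups, and CCL4 does so by less than its counting error.

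Among the interleukins that act on lymphocytes, IL18 had the most even difference. IL18 (gene 395312), of the IL1 family, promotes interferon gamma release by T and NK cells. It was at 73.3, 72.8 and 90.4 CPM in heat pools 1, 2 and 3, against 57.7, 65.9 and 58.4 CPM in control pools 1, 2 and 3. All heat pools lay above all control pools, and the lowest heat pool was 72.8 CPM (counting interval 68.2 to 77.7) against 65.9 CPM (61.7 to 70.3) in the highest control pool. The log2 fold change was 0.38 (SE 0.12, 95% interval 0.09 to 0.66), a ratio of 1.3, with an edgeR unadjusted p of 0.0159 and an edgeR adjusted p of 0.179. The exact two-sided permutation test over the 6 pools gave p = 0.1, the smallest that 3 against 3 pools allow. The change stayed between 0.27 and 0.45 with any pool left out and between 0.30 and 0.39 in the other settings.

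IL15 (gene 395258) sustains T and NK cells of the epithelium and is presented to them by IL15RA. It was at 182, 150 and 313 CPM in heat pools 1, 2 and 3, against 169, 168 and 208 CPM in control pools 1, 2 and 3. Heat pool 3 stood above the rest while heat pool 2 was the lowest of all 6 pools, so the heat group enclosed the control group. The log2 fold change was 0.25 (SE 0.26, 95% interval -0.35 to 0.84; edgeR adjusted p = 0.661), without heat pool 3 it was -0.13, and without heat pool 2 it was 0.46. The 6 cytotoxic lymphocyte markers, all detected in every pool, summed to 1890, 1370 and 2480 CPM in heat pools 1, 2 and 3, against 1340 to 1920 CPM in control pools. GNLY made up 1910 CPM of the sum in heat pool 3, and the median marker there lay 0.215 from the control mean (log2 CPM), under 0.223 in heat pool 1 and 0.307 in control pool 2. Enterocyte markers summed to 14800 CPM in heat pool 3, the highest of the 6 pools. VIL1 of that list was at 1110 CPM in heat pool 3, below every control pool. The part of either list in the IL15 value was not tested.

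The acute inflammatory genes were at low counts, and their groups overlapped. IL1B (gene 395196), which starts and amplifies inflammation, had 20, 11 and 22 counts in heat pools 1, 2 and 3, against 28, 38 and 22 counts in control pools 1, 2 and 3. That was 1.46 ± 0.512 CPM in heat pools and 2.11 ± 0.574 CPM in control pools (SD, n = 3 each), with overlap. Its log2 fold change was -0.53 (SE 0.37, 95% interval -1.39 to 0.33; edgeR adjusted p = 0.493), so the interval held ratios from 0.383 to 1.26. Leaving out heat pool 2 gave -0.25, and leaving out control pool 2 gave -0.29.

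IL8L1 and IL8L2 are the chicken relatives of mammalian CXCL8, and both attract heterophils or monocytes. IL8L1 (gene 395872) was at 1.1, 0.637 and 2.06 CPM in heat pools 1, 2 and 3, against 3.80, 1.08 and 1.44 CPM in control pools 1, 2 and 3. The values of IL8L2 (gene 396495) were 2.55, 1.91 and 4.05 CPM in the 3 heat pools, against 5.88, 2.80 and 2.89 CPM in the 3 control pools. For both genes control pool 1 was the highest of all 6 and heat pool 2 the lowest, and the other 4 pools lay between them with the groups mixed. IL8L2 was the more abundant per length in every pool, with an IL8L2 to IL8L1 ratio of FPKM of 2.49, 3.22 and 2.11 in heat pools 1, 2 and 3 and of 1.67, 2.80 and 2.15 in control pools 1, 2 and 3. The sources used here do not give how reads shared between these related genes were assigned, so the split between them is uncertain.

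The log2 fold changes were -0.73 for IL8L1 (SE 0.59, 95% interval -2.08 to 0.62; edgeR adjusted p = 0.553) and -0.44 for IL8L2 (SE 0.40, 95% interval -1.37 to 0.48; edgeR adjusted p = 0.602). Single pools moved both values. Without control pool 1 they were 0.01 for IL8L1 and 0.00 for IL8L2, and without heat pool 2 they were -0.40 and -0.22. Without heat pool 3 they were -1.27 and -0.79. Of 10 heterophil markers 3 had enough counts to be tested, and the defensin genes AvBD1, AvBD2, AvBD4 and AvBD7 had 0 to 3 counts in every pool. CSF3R, the receptor of the granulocyte growth factor, was at 22.5, 25.4 and 29.6 CPM in heat pools 1, 2 and 3, above the 10.9, 21.9 and 18.5 CPM of control pools 1, 2 and 3 (log2 fold change 0.60, SE 0.25, edgeR adjusted p = 0.265). LYG2, a lysozyme, was at 27 to 106 CPM in heat pools and 35.2 to 84.9 CPM in control pools (log2 fold change -0.01, SE 0.48). CATH3, the remaining tested marker, averaged 2.99 CPM in heat pools and 3.5 CPM in control pools, with overlap (log2 fold change -0.23, SE 0.27). The untested S100A9 had 2, 1 and 6 counts in heat pools 1, 2 and 3, against 8, 3 and 11 counts in control pools 1, 2 and 3. The summed level of the 10 heterophil markers was 52.5 to 141 CPM in heat pools and 50.9 to 108 CPM in control pools. Its lowest value of 50.9 CPM was in control pool 1, where both IL8-like genes were highest. LYG2 gave 35.2 CPM and CSF3R 10.9 CPM of that value, so the sum says little of the other markers. The part of these markers in the values of IL8L1 and IL8L2 was not tested.

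CCL4 (gene 395468), a chemokine for macrophages and lymphocytes, was the other gene with no overlap between the groups. It had 27, 23 and 33 counts in heat pools 1, 2 and 3, against 68, 41 and 47 counts in control pools 1, 2 and 3. On the CPM scale the heat pools lay at 2.29, 1.83 and 2.72 and the control pools at 4.88, 2.94 and 3.39, so heat pool 3 and control pool 2 nearly met. Their counting intervals, 1.88 to 3.83 CPM in heat pool 3 and 2.11 to 3.99 CPM in control pool 2, overlapped over most of their length. The log2 fold change was -0.71 (SE 0.30, 95% interval -1.39 to -0.02), a ratio of 0.611, with an edgeR unadjusted p of 0.0438 and an edgeR adjusted p of 0.265. The exact two-sided permutation p was 0.1, the smallest possible. Without control pool 1 the log2 fold change was -0.47, nearer to 0, and with any other pool left out it lay between -0.86 and -0.57.

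CCL20, the ligand of CCR6 that draws dendritic cells and lymphocytes to the epithelium, had almost the same mean in both groups. CCL20 (gene 395082) was at 24.1, 13.8 and 28.0 CPM in heat pools 1, 2 and 3, against 31.1, 23.7 and 10.8 CPM in control pools 1, 2 and 3. Each group held a low pool, heat pool 2 and control pool 3, and the ratio of highest to lowest was 2.03 in heat pools and 2.88 in control pools. These gaps exceeded counting error, since the interval of heat pool 2 (11.8 to 16.0 CPM) ended below that of heat pool 1 (21.4 to 27.1 CPM). The log2 fold change was 0.00 (SE 0.39, 95% interval -0.89 to 0.90; edgeR adjusted p = 0.998), an interval that still holds ratios from 0.54 to 1.86.

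CCL19 varied most of all within the heat group. CCL19 (gene 427406), the ligand of CCR7 that guides T cells and mature dendritic cells into lymphoid tissue, was at 40.1, 13.3 and 64.8 CPM in heat pools 1, 2 and 3. It was at 71.6, 44.0 and 51.8 CPM in control pools 1, 2 and 3. Heat pool 3 lay inside the control range, heat pool 1 just under it, and heat pool 2 far under it at 167 counts against 473 and 785 in the other heat pools. The ratio of highest to lowest was 4.88 among heat pools and 1.63 among control pools. The SD of its log2 CPM in heat pools, 1.17, was larger than that of 98.8% of tested genes, and in control pools, at 0.357, larger than that of 83.9%.

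The log2 fold change of CCL19 was -0.50 (SE 0.47, 95% interval -1.59 to 0.58; edgeR adjusted p = 0.615). Without heat pool 2 it was -0.08, without heat pool 3 it was -1.07, and without control pool 1 it was -0.28. On the log2(FPKM + 1) scale limma-trend gave -0.76, and with a pseudocount of 0.1 it gave -0.80. The median B and plasma cell marker lay -1.09 from the control mean (log2 CPM) in heat pool 2, against 0.425 and -0.311 in heat pools 1 and 3. In control pools 1, 2 and 3 it lay at 0.803, -0.229 and -0.574, so it was highest in control pool 1, as CCL19 was. The sum of these markers did not follow that order, at 6130, 5520 and 5200 CPM in heat pools 1, 2 and 3 and at 3870, 7910 and 4500 CPM in control pools 1, 2 and 3. JCHAIN alone averaged 5420 CPM in heat pools and 5200 CPM in control pools, so this sum mostly gives JCHAIN and little of the other markers. The median log2 fold change of the 8 markers was -0.61. It was negative for 6 of them, against 50.3% of all tested genes, and none was called in edgeR, DESeq2 or limma-trend. T cell markers summed to 849, 567 and 804 CPM in heat pools 1, 2 and 3 and to 763, 814 and 622 CPM in control pools 1, 2 and 3. The T cell sum was lowest in heat pool 2. The sum of fibroblast markers was highest in the same pool. It was 1480, 2270 and 1170 CPM in heat pools 1, 2 and 3 and 1300, 1730 and 1880 CPM in control pools 1, 2 and 3. The median fibroblast marker was also highest in heat pool 2, at 0.517 from the control mean (log2 CPM). Not every marker was, since COL1A1 was at 246 CPM in heat pool 2 and 317 CPM in control pool 3. All 8, 10 and 9 markers of these lists were detected in every pool, and their part in the CCL19 value was not tested.

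CXCL12 (gene 395180), the stromal ligand of CXCR4 and ACKR3 that retains lymphocytes and supports blood vessels, was at 37.5, 26.9 and 28.5 CPM in heat pools 1, 2 and 3. It was at 47.2, 34.8 and 39.9 CPM in control pools 1, 2 and 3. Heat pools 2 and 3 lay below every control pool, and heat pool 1 lay between control pools 2 and 3. The log2 fold change was -0.39 (SE 0.17, 95% interval -0.79 to 0.00), a ratio of 0.762, with an edgeR unadjusted p of 0.0521 and an edgeR adjusted p of 0.283. On the log2(FPKM + 1) scale limma-trend gave -0.22, and with a pseudocount of 0.1 it gave -0.24. In FPKM the heat pools lay at 12.1, 8.87 and 7.76 and the control pools at 12.1, 10.1 and 11.3. Heat pool 1 was thus level with the highest control pool per length, and the difference was smaller than in CPM.

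Set out pool by pool, libraries of the same group differed widely for most of these genes. Heat pool 2 was the lowest of the 6 pools for 7 of the 9 tested genes (all but IL18 and CCL20), as it was for 24.2% of all tested genes. Control pool 1 was the highest for 6 of 9 (IL8L1, IL8L2, CCL4, CCL19, CCL20 and CXCL12), as it was for 16.6% of all tested genes. The median deviation of the 9 genes from their control mean (log2 CPM, prior count 2) was -0.258, -0.874 and 0.164 in heat pools 1, 2 and 3, while control pools 1, 2 and 3 had 0.389, -0.212 and -0.103. The same median over all tested genes stayed between -0.0218 and 0.00996 in every pool. The 3 heat pools thus lay on both sides of the control mean. Among the 9 genes, only IL18 deviated upward in all 3 heat pools (0.28, 0.27 and 0.58). IL1B, CCL4 and CXCL12 deviated downward in all 3.

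**Figure D3:**
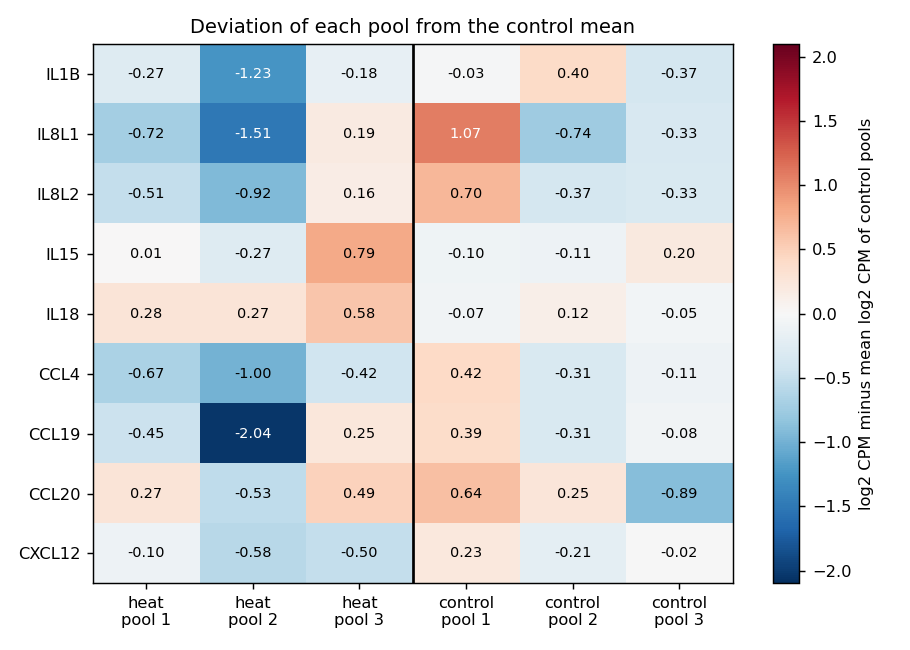
Deviation of log2 CPM in each pool from the mean of the control pools, for the 9 tested genes (rows), with heat pools left and control pools right of the line; blue is lower and red higher. Heat pool 2 is negative for 8 of 9 genes, down to -2.04 for CCL19, while heat pool 3 is positive for IL8L1, IL8L2, IL15, IL18, CCL19 and CCL20.

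**Figure D4:**
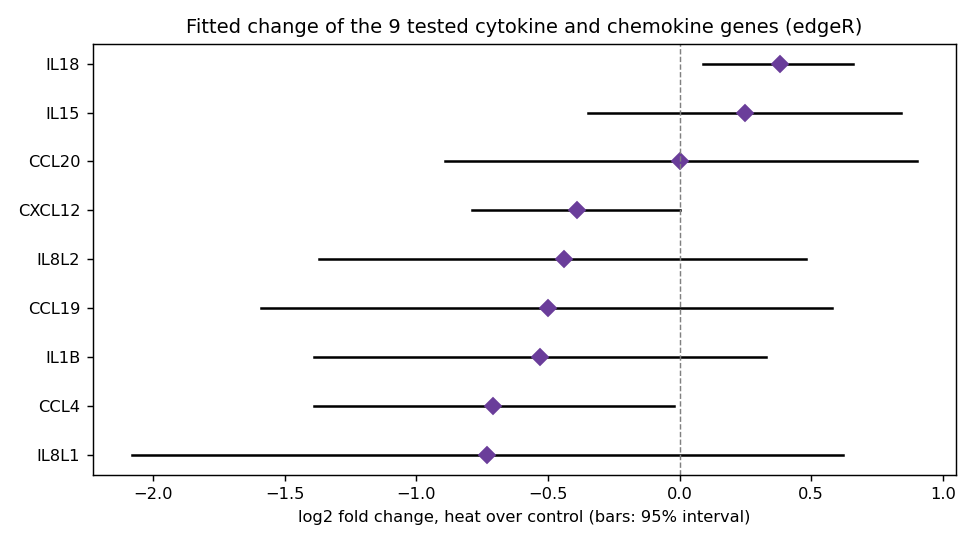
Log2 fold change of heat over control (diamonds) with 95% intervals for the 9 tested genes, from edgeR. Intervals of IL18 (0.09 to 0.66) and CCL4 (-1.39 to -0.02) do not include 0 before adjustment over all genes, and those of IL8L1, IL1B, IL8L2, CCL19 and CCL20 span more than 1.5 log2 units.

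The genes with the most similar profiles over the 6 pools were found by the root mean square difference of centred log2 CPM. Among all tested genes, that of IL8L2 was closest to NFKBIA (0.157), which encodes the inhibitor that holds NF-kB in the cytoplasm. NFKBIA was at 101, 67.7 and 116 CPM in heat pools 1, 2 and 3 and at 167, 92.4 and 104 CPM in control pools 1, 2 and 3, with the same high and low pools as both IL8-like genes. IL8L2 was in turn the second closest to IL8L1 (0.253), after SLC1A6 (0.223). For IL15 the 3 closest were SAMHD1 (0.105), which limits viral replication in mammals, LYSMD4 (0.113) and ITM2B (0.113). For IL18 they were SNX7 (0.049), RAPGEF6 (0.06) and TANK (0.062), a regulator of TRAF signalling. For CCL20 they were APOC3 (0.157), the anti-apoptotic gene BCL2A1 (0.175) and NAB2 (0.177). For CXCL12 MSANTD2 (0.038), for CCL4 FNTB (0.105), for CCL19 UPB1 (0.179) and for IL1B ANKRD13B (0.103) were the closest. With 6 pools and 13060 genes, some close profiles are found for any gene.

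Receptors of these ligands showed no called change. Of 15 receptor genes in the table, all tested, none passed in edgeR, DESeq2 or limma-trend, and at an unadjusted p of 0.05 edgeR counted 1 higher and 0 lower, against 8.87% and 9.02% of all tested genes. Their median log2 fold change was 0.03. The 1 was IL1R2, a decoy receptor that binds IL1B without signalling, at 11.5, 7.96 and 8.59 CPM in heat pools 1, 2 and 3, against 4.66, 6.52 and 6.93 CPM in control pools 1, 2 and 3. Every heat pool of IL1R2 was above every control pool (log2 fold change 0.63, SE 0.24, edgeR adjusted p = 0.224). The signalling receptor IL1R1 was at 0.955 ± 0.388 CPM in heat pools and 0.886 ± 0.65 CPM in control pools (SD, n = 3 each). IL2RB, a chain shared by the IL2 and IL15 receptors, was at 46.6 ± 1.37 CPM in heat pools and 36.1 ± 8.02 CPM in control pools, with overlap (edgeR adjusted p = 0.285).

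IL15RA averaged 6.48 ± 0.77 CPM in heat pools and 6.35 ± 0.531 CPM in control pools. The CCL20 receptor CCR6 averaged 15.7 ± 3.66 and the CCL19 receptor CCR7 14.3 ± 5.15 CPM in heat pools, against 15 ± 3.85 and 14.6 ± 6.22 CPM in control pools. ACKR3, which takes up CXCL12, averaged 13.6 ± 0.871 CPM in heat pools and 10.3 ± 2.68 CPM in control pools, and CXCR4 averaged 55.3 ± 21.2 CPM in heat pools and 40.6 ± 27.7 CPM in control pools. IL18R1 averaged 3.87 ± 0.238 CPM in heat pools and 4.74 ± 1.24 CPM in control pools. None of these 6 was called, and the groups of all 6 overlapped.

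Some other cytokines and chemokines, IL6, CCL17 and CXCL14 among them, had larger fitted changes than any of the 9 tested genes, also without a call in edgeR. Of 19 other cytokines tested, edgeR counted 2 higher and 1 lower at an unadjusted p of 0.05 (median log2 fold change -0.06), against 8.87% higher and 9.02% lower among all tested genes. DESeq2 called 1 of the 19 higher and 0 lower, against 2.7% and 2.24% of all tested genes. The 1 called was IL6, a pleiotropic cytokine of fever and the acute phase, at 6.45, 7 and 6.03 CPM in heat pools 1, 2 and 3, against 2.65, 4.01 and 3.39 CPM in control pools 1, 2 and 3. Every heat pool of IL6 was above every control pool, and the nearest were heat pool 3 (73 counts) and control pool 2 (56 counts). The log2 fold change was 0.95 (SE 0.23), with an edgeR adjusted p of 0.121 and a DESeq2 adjusted p of 0.026. The fitted change stayed positive in all 15 other settings, from 0.32 to 1.11. Count and FPKM together imply a length of 8632 bases for IL6, against 3492 bases for CXCL12 and 841 bases for IL1B. Its FPKM averaged 0.737 in heat pools and 0.397 in control pools. These values rest on that length, which was not checked, so they are not read as a low level. In CPM IL6 averaged 6.49 in heat pools and 3.35 in control pools, against 2.83 and 3.85 for IL8L2. Where along this length its reads fell was not examined. TNFSF10, a death ligand induced by interferon in mammals, was at 774, 1230 and 1300 CPM in heat pools and at 663, 673 and 830 CPM in control pools (edgeR adjusted p = 0.205). CSF1, the growth factor of macrophages, was at 8.32, 7.40 and 5.86 CPM in heat pools, below the 10.6, 11.4 and 10.3 CPM of control pools (log2 fold change -0.58, SE 0.19, edgeR adjusted p = 0.177).

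Of 9 other chemokines tested, DESeq2 called 1 higher and 1 lower and edgeR none, with 1 higher and 1 lower at an unadjusted p of 0.05 (median log2 fold change -0.18). Among all tested genes DESeq2 called 2.7% higher and 2.24% lower, and 8.87% were higher and 9.02% lower at that unadjusted p. The lower was CCL17, in mammals a ligand of CCR4 on T cells, at 3.14, 2.86 and 2.81 CPM in heat pools 1, 2 and 3, against 9.61, 5.59 and 6.57 CPM in control pools 1, 2 and 3. The heat pools of CCL17 lay close together and below every control pool (log2 fold change -1.30, SE 0.26, edgeR adjusted p = 0.0901 and DESeq2 adjusted p = 0.00386). CXCL14, a chemokine of epithelium and stroma, was at 22.7, 52.5 and 16.5 CPM in heat pools and at 15.3, 12.6 and 13.3 CPM in control pools (log2 fold change 1.15, SE 0.39, edgeR adjusted p = 0.19 and DESeq2 adjusted p = 0.0403). Its value was 0.52 without heat pool 2. CX3CL1, a membrane-bound chemokine, averaged 4.21 ± 0.989 CPM in heat pools and 3.04 ± 0.314 CPM in control pools. CXCL13L3, a B cell chemokine of the CXCL13 group, was at 4.58, 1.19 and 1.57 CPM in heat pools and at 13.7, 0.502 and 0.721 CPM in control pools, so that control pool 1 alone set its negative log2 fold change of -1.03 (1.98 without that pool).

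The listed NF-kB and inflammasome genes had mostly small fitted changes. Among others, the list holds genes that carry the signal to NF-kB or restrain it, inflammasome genes and genes of mRNA decay. Of 33 tested, edgeR called 0 and DESeq2 called 3, all higher, against 4.94% of all genes called by DESeq2 (2.7% higher). At an unadjusted p of 0.05 edgeR counted 5 higher and 2 lower, against 8.87% and 9.02% of all tested genes, and the median log2 fold change was 0.03. All heat pools lay above all control pools for 8 of the 33 and below for 1, against 11.6% and 12.9% of all tested genes. The 3 called by DESeq2 were TAB3, which links the kinase TAK1 to ubiquitin chains, TNIP1, which restrains NF-kB, and ZFP36L1, which speeds decay of cytokine mRNAs. TAB3 was at 165, 156 and 161 CPM in heat pools 1, 2 and 3, against 114, 118 and 125 CPM in control pools 1, 2 and 3 (log2 fold change 0.43, SE 0.10, DESeq2 adjusted p = 0.0059, edgeR adjusted p = 0.116). TNIP1 was at 195, 219 and 230 CPM in heat pools and at 165, 149 and 151 CPM in control pools (DESeq2 adjusted p = 0.0103, edgeR adjusted p = 0.121). ZFP36L1 was at 75.3, 133 and 79.4 CPM in heat pools and at 55.9, 51.1 and 53.1 CPM in control pools (DESeq2 adjusted p = 0.00974, edgeR adjusted p = 0.126), and its log2 fold change of 0.85 was 0.54 without heat pool 2.

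The heat pools of all 3 of these lay above every control pool. TRAF6 and TAB2, signal carriers of the IL1 and Toll-like receptors, completed the 5 higher, at log2 fold changes of 0.29 (SE 0.10) and 0.26 (SE 0.10). The 2 lower were the receptor kinase IRAK4 (-0.52, SE 0.16) and NLRPL (-0.85, SE 0.29), listed with NLRP3 as a synonym. TRAF6, TAB2 and NLRPL were named after their values were seen. CASP1, the inflammasome protease that matures IL1B and IL18 in mammals, had a log2 fold change of 0.02 (SE 0.15), the adaptor MYD88 0.00 (SE 0.15), the feedback inhibitor TNFAIP3 0.03 (SE 0.20) and NFKB1 itself 0.03 (SE 0.15). The inhibitor NFKBIA was at -0.35 (SE 0.26), at -0.04 without control pool 1 and at -0.15 without heat pool 2.

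**Figure D5:**
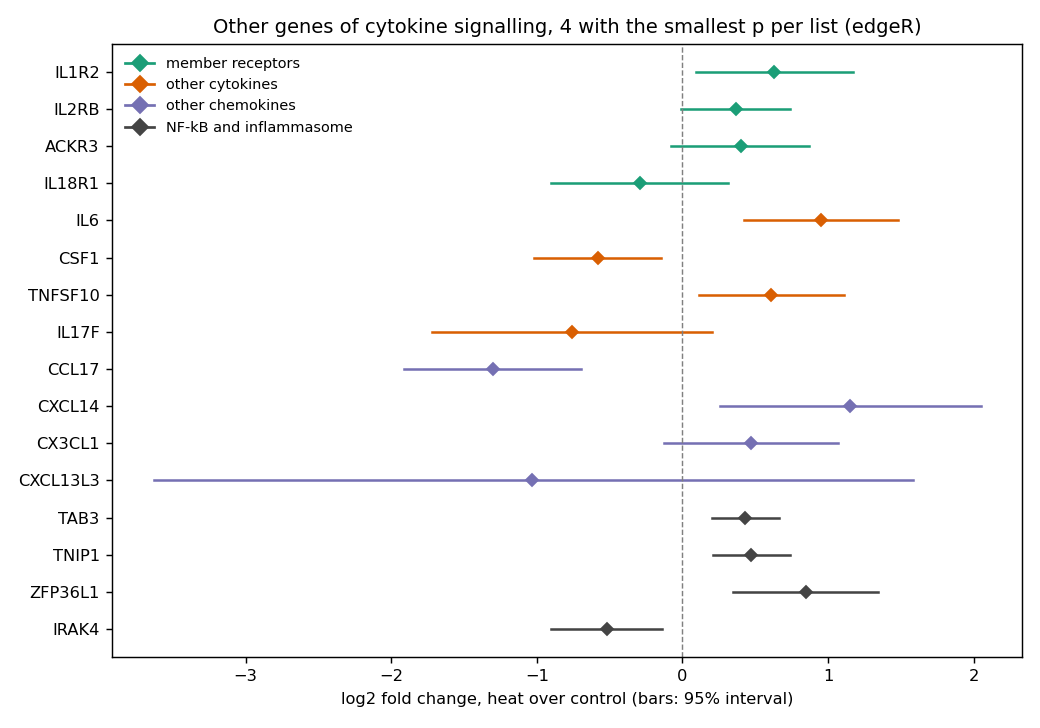
Log2 fold change of heat over control (diamonds) with 95% intervals, from edgeR, for the 4 genes with the smallest p in each of the lists of receptors, other cytokines, other chemokines, and NF-kB and inflammasome genes (colours). CCL17 lies lowest at -1.30 and CXCL14 highest at 1.15; none passed an adjusted p of 0.05 over all genes in edgeR.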

How the data were processed

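RNA of 4 hens was pooled for each of the 6 libraries, per the labels' protocols, and libraries followed poly(A) selection or ribosomal RNA removal. HISAT2 2.0.1, cutadapt 1.9.1, DESeq2 and HTSeq 0.6.1 are named, per the submitters' processing notes, with genome build GRCg6a, without their order or settings. Per the file headers, the authors deposited a read count and an FPKM value for every gene in each library. Between 13.05% and 13.65% of the deposited count values per library were not whole within 0.001, so they were handled as estimated counts. Whether counting used strand is not stated in the sources used here. Symbols of 20 genes turned into dates were restored by gene identifier.

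Counts were rounded and tested with edgeR 4.0.16 in R 4.3.3 (filterByExpr, minimum count 10 and total 15; TMM scaling; glmQLFit and glmQLFTest; Benjamini-Hochberg over 13060 genes; two-sided). The SE was derived from the fold change and the F statistic, and intervals are 95%. The common biological coefficient of variation was 0.196. DESeq2 1.42.0 and limma 3.58.1 (limma-trend, log2(FPKM + 1)) were alternatives, beside other scalings, filters, a removed trend on gene length, a replicate block and leaving out each pool. Fold changes on log2(FPKM + 1) understate changes of low genes. DESeq2 gave no adjusted p for some tested genes, IL17F, IL1R1 and CXCL13L3 among them. Such genes count as not called, both in the lists and in the shares over all tested genes. No pair of libraries in a group agreed within sampling noise (chi-square 22.2 to 65 per degree of freedom). The genes and lists were chosen with earlier results of these data known. Besides the 10 genes, the text names the 4 genes with the smallest p of the 4 signalling lists and the closest profiles. Of the cell type lists it names CSF3R, LYG2, CATH3, GNLY, VIL1 and COL1A1, each within the 4 smallest p of its list. Further receptors, TRAF6, TAB2, NLRPL, CASP1, MYD88, TNFAIP3, NFKB1, JCHAIN, S100A9, the heterophil defensins and low-count cytokines were named after their values were seen. Markers of 11 cell types serve as lists. The genes of these lists not in the table, such as TNF, were not analysed here.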

Additional observations from a re-analysis of the deposited data

How the results depend on the processing

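No cytokine or chemokine of the set passed an adjusted p of 0.05 in any of 15 other settings. Of 135 values, 129 were not opposite in sign to the main fit, values at 0.00 included. CCL20 gave 11 of these although its main value has no clear direction, and all settings reuse the same libraries. The direction turned for CCL20 (main value 0.00) with library totals only (-0.06); leaving out each pool in turn gave -0.32 to 0.34 for CCL20, -0.13 to 0.46 for IL15 and -1.27 to 0.01 for IL8L1. Among the 20 other genes named with a test, CXCL13L3 turned to 0.10 and 0.18 in limma-trend with a pseudocount of 1 and 0.1, and ranged from -1.83 to 1.98 without each pool.

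Over all genes the count of 3 higher and 0 lower was 352 and 293 in DESeq2, 1 and 0 in limma-trend with a pseudocount of 0.1, and 8 and 12 with the replicate block. It was 0 to 6 higher and 0 to 1 lower without each pool in turn. Pools with the same number did not deviate together throughout (correlation of deviations across genes 0.257, 0.089 and 0.017), so the numbers were not taken to pair the pools. With counts of 8 to 82 for IL1B, IL8L1, IL8L2 and CCL4, depth limits what can be seen, beside the spread between pools. For IL8L1 that spread exceeded counting error, with intervals of 2.85 to 4.97 CPM in control pool 1 and 0.602 to 1.77 CPM in control pool 2. The cause of these shifts was not tested.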

Other observations

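Several other cytokines had too few counts to be tested or lay near that limit. IL17A, the T cell cytokine of barrier defence, had 6, 1 and 2 counts in heat pools 1, 2 and 3, against 28, 12 and 4 counts in control pools 1, 2 and 3. Levels of its relative IL17F were 0.933, 0.477 and 0.495 CPM in heat pools, against 1.29, 1.15 and 0.794 CPM in the control pools (edgeR adjusted p = 0.379). In both genes control pool 1 was the highest, and the groups overlapped. IL17F had 6 counts in heat pool 2 and 6 in heat pool 3, and IL17A had 1 and 2, so these counts do not tell heat pools 2 and 3 apart. The chemokine gene CCLI5 had 6, 4 and 2 counts in heat pools 1, 2 and 3, against 7, 19 and 12 counts in control pools 1, 2 and 3. TNFSF8, a ligand of activated T cells in mammals, had 6, 10 and 6 counts in the heat pools, against 3, 2 and 4 counts in the control pools. These counts are not scaled to library size, and at this depth counting error is large. CSF3, the growth factor of granulocytes, had 0, 0 and 5 counts in the heat pools and 0 in each control pool. IL10, which restrains inflammation, had 1 to 5 counts in heat pools and 2 to 6 counts in control pools.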
